A study of Arabidopsis thaliana with 28 samples.

Results

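chr31 (AT1G05490) is a gene of chromosome 1 of Arabidopsis thaliana, and 1 probe of the 3439 on the array, spot number 4113, measured it. The probe was chosen by its signal in these data, because it was strongly lower on sucrose and close to 0 there, so its difference between the media is given as a description with no test. Gene expression was measured in total RNA of wild-type plants of the ecotype Columbia 0, grown on MS medium (Murashige and Skoog salts, used widely to culture plants) with 2% sucrose (14 arrays) or without it (14 arrays). The labels name no organ, age, culture or batch, and all plants were of 1 genotype. Consecutively numbered arrays of a group were averaged into 7 sets of 2 arrays per group, because they resembled each other in an earlier analysis of the same values. The labels do not call them duplicates, so spreads between sets may be technical.

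SNF2-type chromatin remodelers are ATPases that move, open or evict nucleosomes, or help other enzymes to reach packed DNA. chr31 is the gene known in later literature as CLSY3, a member of the small CLASSY family. CLASSY proteins help recruit RNA polymerase IV to chromatin, where it makes the precursors of the small interfering RNAs that guide DNA methylation in plants. Family members act at different loci and in different tissues, and CLSY3 is known for its role in ovules and other reproductive tissue.

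chr31 gave no more than a weak signal, of at most 0.153, on 12 of the 14 arrays with sucrose, and a signal of at least 0.428 on every array without it. It was listed at 0 on 9 of the 14 sucrose arrays (64.3%) and on 0 of the 14 no-sucrose arrays. The remaining sucrose arrays were the 2 of set 2, with a residual signal, 1 array of set 7 barely above 0, and the 2 of set 1, which lay within the no-sucrose range. In bulk RNA such as this, fewer cells that express a gene and less RNA per cell cannot be told apart.

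The values as deposited are intensities on a linear scale on which the brightest probe of an array lay between 81.5 and 100. On sucrose, chr31 had intensities of 0.549 and 0.668 on the arrays of set 1. It had 0.0459 and 0.153 on those of set 2. It was at 0 on all 8 arrays of sets 3 to 6, and set 7 had 0.0150 and 0. The 2 arrays of sucrose set 2 differed by 0.107 in intensity, within the 0.00660 to 0.216 by which the arrays of a no-sucrose set differed. On the log2 scale described below, where 1 of these 2 arrays was at the floor, they differed by 1.99. The arrays of a no-sucrose set differed by 0.00389 to 0.481 on that scale.

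Without sucrose, the intensities were 0.428 and 0.645 in set 1, 0.468 and 0.598 in set 2, 0.80 and 0.905 in set 3, and 0.746 and 0.752 in set 4. They were 0.557 and 0.642 in set 5, 0.666 and 0.743 in set 6, and 0.693 and 0.801 in set 7. The medians were 0 on sucrose and 0.679 without it. The groups overlapped through sucrose set 1 alone: the highest of the other 12 sucrose arrays, at 0.153, lay below the lowest no-sucrose array, at 0.428.

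**Figure D1:**
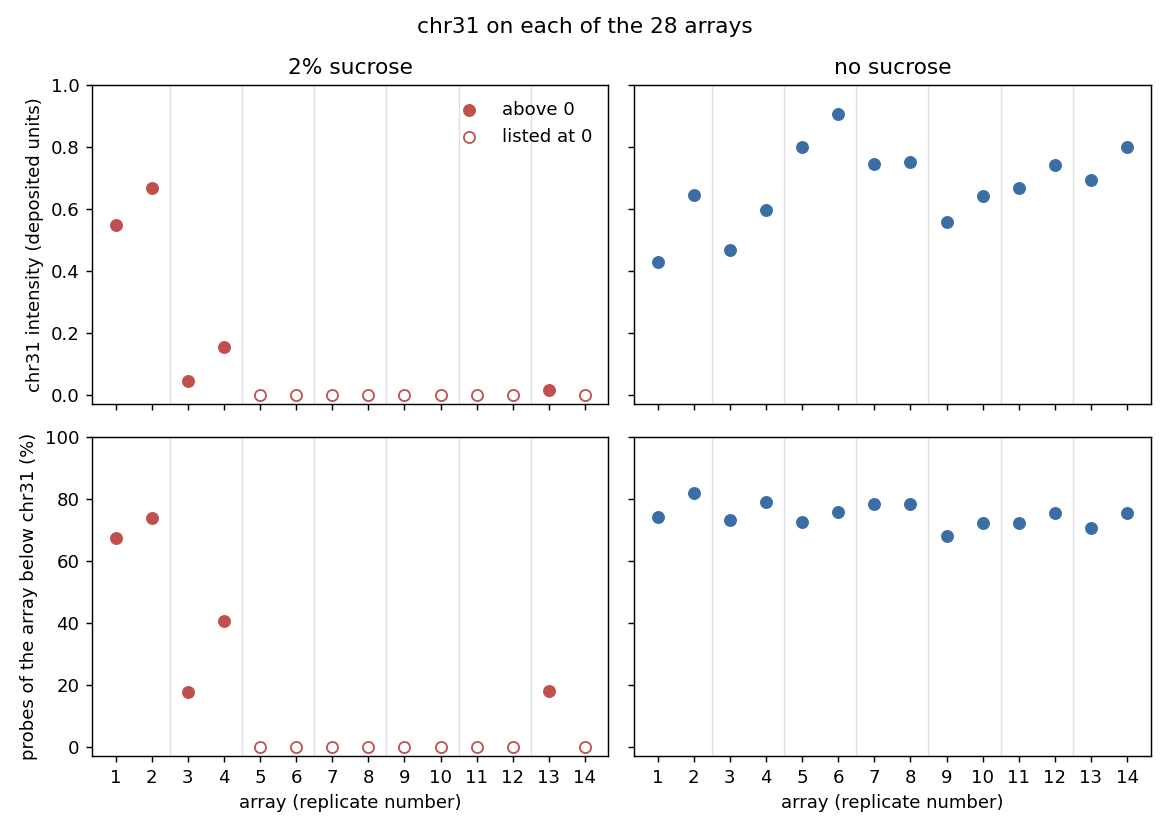
chr31 on each array, with 2% sucrose at left and no sucrose at right. The upper row gives the deposited intensity, the lower row the percentage of the array's 3439 probes with a lower value; open circles are arrays where chr31 is listed at 0, and grey lines separate the sets of 2 arrays. In the lower row the 2 arrays of sucrose set 1 sit at 67.5 and 73.8% and the other sucrose arrays at 40.5% or less, against 68.0 to 82.0% on the 14 no-sucrose arrays.

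The place of chr31 among the probes of its own array needs no scaling between arrays. It exceeded 67.5 and 73.8% of the probes on the arrays of sucrose set 1, 17.8 and 40.5% on those of set 2, and 18.1% on the only array of sets 3 to 7 where it was above 0. Without sucrose it exceeded 68.0 to 82.0% of the probes, with a median of 74.8%. These are ranks of signals on an array and not of transcript levels. On 12 of the 14 sucrose arrays the signal of chr31 was thus below the array's median, and on every no-sucrose array above it.

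Array brightness differed between the media and was set beside the gene for that reason. In sucrose sets 2 to 7 the median signal of an array was 0.161 to 0.216. In no-sucrose sets 3 to 7 it was 0.342 to 0.438. Sucrose set 1, at 0.337 and 0.340, was close to those brighter no-sucrose arrays, and no-sucrose sets 1 and 2, at 0.179 to 0.214, were as dim as the other sucrose arrays. On those dim no-sucrose arrays chr31 had 0.428 to 0.645, which is 2.18 to 3.61 times the array median. The ratio to the array median was 1.63 and 1.96 in sucrose set 1, 0.234 and 0.768 in sucrose set 2, and at most 0.0927 in sucrose sets 3 to 7. It was 1.61 to 2.13 in no-sucrose sets 3 to 7. The part of array brightness in the values of chr31 was not tested.

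A value of 0 was common on these arrays, and the sources used here do not say what it stands for. Between 11.9 and 17.5% of the probes were at 0 on an array, 409 to 554 probes with sucrose and 410 to 601 without. Of the 3439 probes, 98 were at 0 on every array and 2484 on none. More sucrose than no-sucrose arrays were at 0 for 400 probes, and fewer for 366. The pattern of chr31, at 0 on at least 9 sucrose arrays and on no array without sucrose, was met by 4 probes (0.116%), and the opposite pattern by 0 probes. The other 3 list either several genes or none in the annotation used here, so they are left unnamed. Since chr31 was chosen for this pattern, nothing is read from its place in that count.

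For a difference on the log2 scale, intensities below 0.0483 (the 5th percentile of the values above 0) were set to that floor, and arrays were quantile normalized. The mean log2 signal of chr31 was -3.76 ± 1.23 on sucrose and -0.87 ± 0.16 without it (SD, n = 7 sets each). The log2 difference was -2.89, or 7.39-fold lower on sucrose, with 5 of the 7 sucrose sets at the floor. The spread among sucrose sets came from sets 1 and 2, at -1.09 and -3.38. The 7 no-sucrose sets lay between -1.12 and -0.68, so sucrose set 1 fell inside their range. Without sucrose set 1 the log2 difference was -3.33, or 10.1-fold.

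The size of this difference was set largely by the floor. With floors at the 1st and 10th percentiles of the positive values, 0.0103 and 0.0804, chr31 was 20.4-fold and 4.96-fold lower, and with an offset of 0.1 it was 4.42-fold lower. The sign was the same in each of these. By log2 difference chr31 had rank 15 among the 3439 probes and rank 3 among the 692 probes of 1 gene, counted from the largest decrease. With the 1st percentile as floor these ranks were 4 and 1, and with the 10th they were 34 and 9. In the fit over all probes, limma called 30.0% of probes at an adjusted p under 0.05 in either direction and 12.4% (428 probes) as lower on sucrose, which is the background for a decrease in this comparison. That count was 739 with the values as deposited, 738 without the 3 sets that stood apart (sucrose set 1 and no-sucrose sets 1 and 2) and 189 with the set number as a replicate block.

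**Figure D2:**
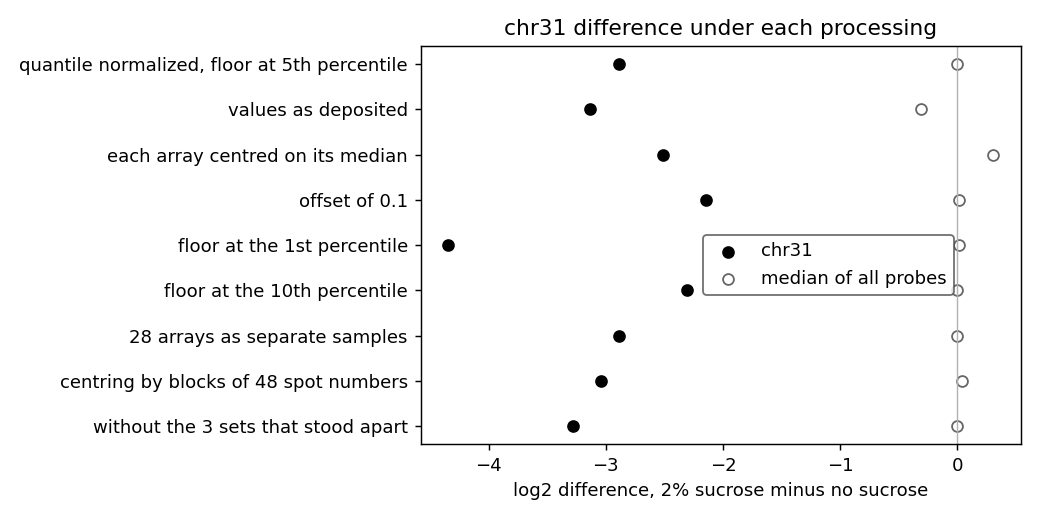
Log2 difference of chr31 (filled) and median log2 difference of all 3439 probes (open) under each processing, 2% sucrose minus no sucrose, so that values left of 0 are lower on sucrose. chr31 lies between -4.35 with the lowest floor and -2.14 with an offset of 0.1, while the median of all probes stays between -0.31 and 0.31.

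The probes of 1 gene next to chr31 in the order of decreases differed from it in how often they were at 0. AT4G13680 and AT3G50350 had the next larger decreases, at 9.04-fold and 7.62-fold, and AT5G40030 and AT4G17070 the next smaller, both at 7.30-fold. AT4G13680 and AT3G50350 were at 0 on 1 sucrose array each, and AT5G40030 and AT4G17070 on 0, against 9 for chr31. Of the 7 sucrose sets, AT4G13680 was at the floor in 2 and AT3G50350 in 1, against 5 for chr31, so their folds also depend in part on the floor. AT4G17070 had a median intensity of 2.80 on sucrose and 23.4 without, so it remained among the brightest probes of the sucrose arrays. These 4 genes also had values in sucrose set 1 far above those of the other sucrose sets. In set 1 AT4G13680 had 1.35 and 1.37, against at most 0.128 in sucrose sets 2 to 7, and 0.541 to 2.19 without sucrose.

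Likeness to chr31 was measured as Spearman's rho over the 14 sets, among the 629 other probes of 1 gene whose sets varied. It is a description, since the sets share the 2 media, the array scaling and the sets that stood apart. AT1G73430 was most like it (rho 0.93), followed by AT3G50350 (0.89), LpxA (0.86), AT5G40470 (0.85) and AT2G46220 (0.84). LpxA encodes an acyltransferase named after the bacterial enzyme that starts lipid A synthesis. Of the 629 probes, 11 had a rho above 0.8 and 15 one below -0.8, with a median of 0.09.

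AT1G73430 had intensities of 0.517 to 1.03 in sucrose sets 2 to 7, 2.11 and 2.21 in sucrose set 1, and 1.91 to 3.08 without sucrose. It followed chr31 in its order of sets while it kept a signal on every array. AT5G40470 had 0.147 to 0.242 in sucrose sets 2 to 7, 0.590 and 0.688 in sucrose set 1, and 0.534 to 0.930 without sucrose. It was at 0 on none of the 28 arrays. LpxA was dim on both media, with medians of 0.0555 on sucrose and 0.159 without. AT2G46220 was bright on both, with medians of 1.94 and 7.78. AT3G50350 had a median of 0.188 on sucrose and 1.69 without.

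Among the 7 no-sucrose sets alone, where chr31 was measured throughout, rho with these genes was 0.68 for AT1G73430, 0.32 for AT3G50350, 0.75 for LpxA, 0.71 for AT5G40470 and 0.14 for AT2G46220. With each group's mean taken out, Pearson's r over the 14 sets was 0.92, 0.83, 0.59, 0.62 and 0.62 for the same genes in that order, and sucrose set 1 enters that measure. The 2 measures ordered the genes differently, and differences between the genes were not tested. Among the sucrose sets alone no order could be read, since 5 of the 7 were tied at the floor.

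The genes least like chr31 were AT5G15280 (rho -0.89), AT4G05030 (-0.86), AT3G06570 (-0.86), AT4G30740 (-0.85) and AT3G44020 (-0.84). AT5G15280 encodes a pentatricopeptide repeat protein; such proteins bind RNA in mitochondria and plastids. AT4G05030 mirrored chr31 in its values at and near 0. It had 0.0597 to 0.283 in sucrose sets 2 to 7, was at 0 on both arrays of sucrose set 1, and reached at most 0.0250 without sucrose, with 8 of the 14 arrays at 0. On the log2 scale AT4G05030 was at the floor in every no-sucrose set and in sucrose set 1. chr31 was at the floor in 5 sucrose sets, so the rho between them rests largely on ties. AT5G15280 had medians of 0.581 on sucrose and 0.275 without. AT3G06570 had 8.87 and 6.89, and AT3G44020 had 3.05 and 1.75. AT4G30740 had 0.256 on sucrose and 0.294 without, so it was lower on sucrose as deposited. After normalization it was higher there, with a log2 difference of 0.70.

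**Figure D3:**
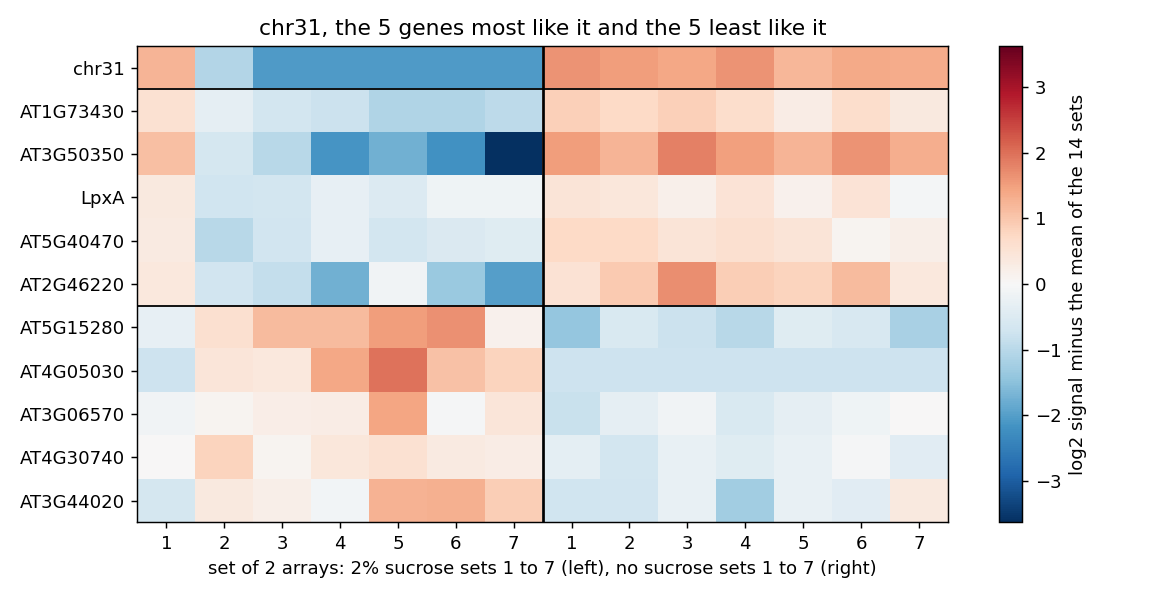
Log2 signal of chr31 (top row), the 5 genes most like it (rows below) and the 5 least like it (bottom rows), each minus its mean over the 14 sets, with sucrose sets 1 to 7 at left and no-sucrose sets 1 to 7 at right. In the upper 6 rows sucrose set 1 has the colour of the no-sucrose sets, and chr31 is flat at its floor in sucrose sets 3 to 7.

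The probes with adjacent spot numbers moved the opposite way to chr31 and were among the brightest of their arrays. Spot 4112 measures AT4G39690, which encodes a protein of the mitochondrial inner membrane, and spot 4114 is unnamed here. These probes were singled out after their values were seen. On the normalized log2 scale, a negative rho with chr31 was not particular to them. Over the 14 sets, rho with chr31 was -0.64 for spot 4112 and -0.71 for spot 4114. It was -0.75 for spots 4107 and 4108, -0.37 for spot 4109 and -0.51 for spot 4119, but 0.48 for spot 4111 and 0.51 for spot 4117. In deposited units spot 4108 had medians of 0.666 on sucrose and 0.324 without, and spot 4107 had 0.182 and 0.162. Spots 4109 and 4119 were slightly lower on sucrose in those units, at 0.151 against 0.162 and 0.209 against 0.233. Over all 3439 probes, limma called 605 as higher on sucrose after quantile normalization, 58.6% of the 1033 called in either direction. The number called higher depended on the processing. It was 189 with the values as deposited, 227 with the set number as a replicate block and 1076 after median centring. Over the arrays, spot 4112 exceeded a median of 97.6% of probes on sucrose and 94.6% without, and spot 4114 exceeded 98.9% and 97.7%. Spot 4112 had 2.01 and 2.26 in sucrose set 1 and 4.35 to 7.81 in sucrose sets 2 to 7, against 1.88 to 3.25 without sucrose. The 12 arrays on which chr31 was at most 0.153 thus had at least 4.35 at spot 4112, and all others had at most 3.25.

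Spot 4114 had 9.31 and 9.67 in sucrose set 1, 8.66 and 8.87 in sucrose set 2, and 13.3 to 22.1 in sucrose sets 3 to 7. Without sucrose it had 8.61 to 9.57 in sets 1 and 2 and 3.34 to 6.67 in sets 3 to 7. chr31 was at most 0.0150 on the 10 arrays where spot 4114 was 13.3 or more. At levels of spot 4114 between 8.61 and 9.67, chr31 had 0.549 and 0.668 in sucrose set 1, 0.0459 and 0.153 in sucrose set 2, and 0.428 to 0.645 in no-sucrose sets 1 and 2. Spot 4111, next to spot 4112, had a median of 0 on sucrose and of 0.0132 without, and was at most 0.0924 on any array. The sources used here give neither the layout of the array nor its background correction, so it is not known whether consecutive numbers lie side by side. The part of these bright spots in the values of chr31 was not tested. With each array centred by blocks of 48 spot numbers, which cannot remove an effect of single neighbours, chr31 was 8.22-fold lower on sucrose.

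**Figure D4:**
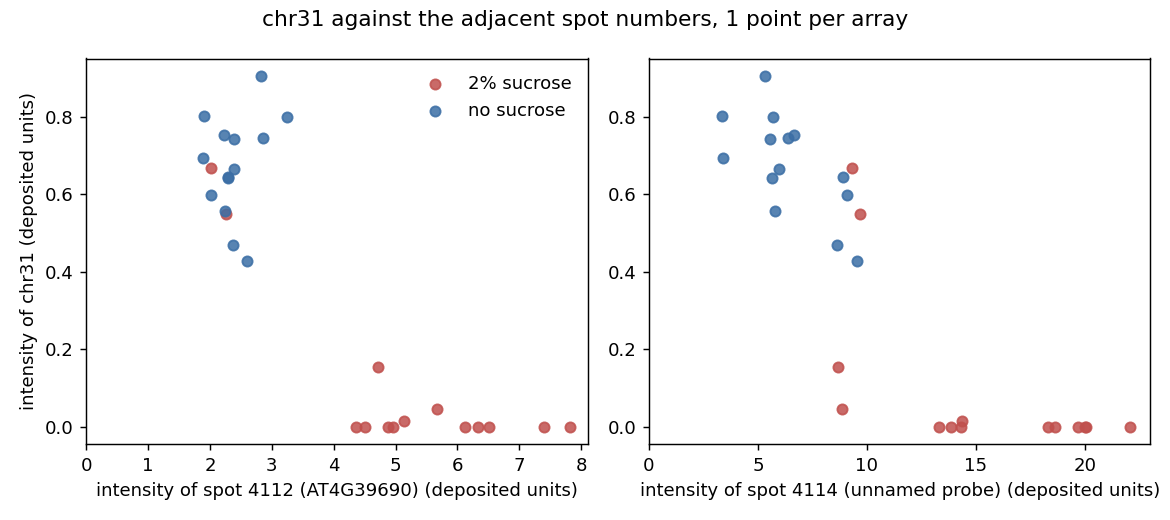
Intensity of chr31 (vertical axis) against the intensity of spot 4112, AT4G39690 (left panel), and of the unnamed spot 4114 (right panel), 1 point per array, all in deposited units. The 12 arrays of sucrose sets 2 to 7 lie at the bottom right of the left panel, and the 2 arrays of sucrose set 1 lie among the no-sucrose arrays in both panels.

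The rest of the pathway could hardly be followed with the genes named here. Of 69 listed genes of the CLASSY family, RNA-directed DNA methylation, the upkeep and removal of DNA methylation and SNF2-type remodeling, 2 were measured by a probe of 1 gene, chr31 itself and DME. None of the 3 other CLASSY genes and none of the 25 listed genes of RNA-directed DNA methylation was measured by such a probe. DME encodes the DNA glycosylase DEMETER, which removes methylated cytosine, chiefly in the central cell of the female gametophyte. It was listed at 0 on 12 of the 14 sucrose arrays and on all 14 no-sucrose arrays. The exceptions were the arrays of sucrose set 2, at 0.0386 and 0.0612. No fold is given for DME.

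Tissue markers were as sparse, and the labelled material could not be checked against them. Of 29 listed genes of flower and ovule, root, green leaf, seed and wide expression, 1 was measured by a probe of 1 gene. This was SPL (SPOROCYTELESS), which encodes a nuclear regulator needed to form spore mother cells in anther and ovule. SPL had intensities of 0.162 to 0.720 on sucrose, with a median of 0.40, and 0.205 to 0.821 without, with a median of 0.493, so the groups overlapped over most of their range. Its log2 difference was 0.27 ± 0.18 (SE, n = 7 sets each; limma adjusted p = 0.262), and the 95% confidence interval ran from -0.11 to 0.65. With the values as deposited its difference was -0.26, so its sign depended on the scaling. Over the 14 sets its rho with chr31 was -0.40.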

How the data were processed

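The authors deposited a linear intensity for each probe on each array, never below 0; the sources used here name no scanner, background correction or normalization. The number of arrays limits the precision. Sample titles gave the groups and replicate numbers. chr31 and the gene lists were chosen with earlier results of these data known. Values were raised to the floor, log2 transformed, quantile normalized and averaged over consecutive arrays. Sets were compared over all 3439 probes with limma 3.58.1 (lmFit, eBayes, two-sided, Benjamini-Hochberg, threshold 0.05) in R 4.3.3. Only this limma step was tested on simulated data, with independent normal values and without the floor, normalization or averaging. Names came from the platform annotation, updated through the RefSeq table of TAIR10.1: 692 probes had 1 gene (690 matched), 870 several and 1877 none listed. No coordinates are given, since no build is named. Genes named were chr31, the 5 probes of 1 gene most and least like it, 2 on either side in the order of decreases, and all measured list genes; AT4G39690, CYN and AT2G26110 were added as neighbours in spot number after values had been seen. The alternatives covered scaling, floor, separate arrays, the replicate block, spot blocks, a filter on the dimmest 25% of probes, and sets left out. The labels do not say whether same-numbered sets of the 2 groups were paired, and the main fit treated them as unpaired. Correlations of same-numbered sets' deviations were -0.52 for set 1 and -0.08 to 0.13 for the others, which cannot settle it. Promoter motifs that had been planned were not analysed here.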

Additional observations from a re-analysis of the deposited data

Results flagged for a closer look

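By Dixon's test on 7 sets, 1 set stood well away from its group in 6 of the 30 groups of values examined for the genes named here. Chance flags about 1 in 20 groups of independent values without ties, which these are not: several genes were tied at the floor, and chr31 was chosen on its sucrose values. The other genes, apart from the list genes, were picked by likeness to chr31 or by their decrease over these same sets. The count of 6 is thus a description and is not read against the share from chance. In 4 of the 6 the set was sucrose set 1, which is 1 observation seen in several genes. Its log2 signal was -1.09 for chr31, against -4.37 to -3.38 in the other sucrose sets (gap over range 0.696). Of those 6 sets, 5 were tied at the floor, so this gap depends on the floor and is given as a description. It was 0.32 for AT4G13680, against -4.37 to -2.81, 2.57 for AT5G40030, against -2.41 to -0.53, and 3.87 for AT4G17070, against 0.58 to 1.89. The others were sucrose set 5 for AT3G06570, at 4.44 against 2.87 to 3.44, and sucrose set 2 for DME, at -4.09, where the other 6 sucrose sets were tied at the floor.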

How the results depend on the processing

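The log2 difference of chr31 between the media was negative under all 23 alternatives, from -4.35 to -2.14. Because chr31 was chosen for this decrease, the constant sign is a description and no support. With groups of equal size, separate arrays and the replicate block cannot change the difference, and both gave -2.89. The difference moved by more than the spread between sets (0.88) under 1 of the alternatives, the floor at the 1st percentile, where it was -4.35. Leaving out 1 set gave -3.33 (without sucrose set 1) to -2.78. The number of probes called by limma was 1033, of which 58.6% were higher on sucrose. It was 1710 with the 28 arrays as separate samples and 1657 without the 3 sets that stood apart (sucrose set 1, no-sucrose sets 1 and 2), which were picked from the same data. With the set number as a replicate block it was 416, and chr31 differed by the same -2.89. Whether same-numbered sets were paired is not known from the labels. The share higher on sucrose was 20.4% with the values as deposited and 71.3% after median centring. SPL had a log2 difference of -0.26 with the values as deposited and -0.052 with spot blocks centred, and was called under none of its 24 alternatives (adjusted p from 0.0862 to 0.855). DME was called after median centring (adjusted p = 0.0442) although all its no-sucrose arrays were at 0. Centring shifts tied values at the floor by the array's median. The floor limits what can be said of chr31 on the log2 scale, where 11 of 14 sucrose arrays were tied at it. In the deposited values 9 of these were at 0, and the others had 0.0459 and 0.0150.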

Other observations

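The other 3 probes that were at 0 on at least 9 sucrose arrays and on no array without sucrose are unnamed here. Spot 897 was at 0 on 9 sucrose arrays and had a no-sucrose median of 0.586, spot 2277 was at 0 on 10 with a median of 1.58, and spot 4588 at 0 on 9 with a median of 0.303. In sucrose set 1 spot 897 had at least 0.545, spot 2277 at least 0.391 and spot 4588 at least 0.0519, so all 3 were above 0 there, as chr31 was. Their measured neighbours in spot number differed. Spot 896, which measures the cyanase gene CYN, had medians of 0.666 on sucrose and 1.49 without, and spot 2276, AT2G26110, had 0.145 and 1.04. Spot 2278, on the other side of spot 2277, had a median of 0 on both media. Of the neighbours of spot 4588, not named here, spot 4587 had 0.238 on sucrose and 0.448 without, and spot 4589 had 7.11 on sucrose and 3.32 without. No explanation was tested.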
